A study of Mus musculus with 12 samples.

Results

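Oxidative phosphorylation is the last stage of respiration, carried out in the inner mitochondrial membrane. Complex I (NADH dehydrogenase) and complex II (succinate dehydrogenase) pass electrons to ubiquinone, complex III passes them on to cytochrome c, and complex IV (cytochrome c oxidase) passes them to oxygen. Complexes I, III and IV pump protons, and complex V (ATP synthase) uses the proton gradient to make ATP. The subunits are encoded in 2 genomes: the 13 protein genes of mitochondrial DNA supply core subunits of complexes I, III, IV and V, and all other subunits, with the whole of complex II and cytochrome c, are encoded in the nucleus. Colonocytes, the absorptive epithelial cells of the colon, draw much of their energy from the mitochondrial oxidation of butyrate, a short-chain fatty acid made by gut bacteria.

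The genes described here were taken from the deposited gene table by name. They were the protein_coding rows whose symbols begin with mt-, Nduf, Uqcr, Atp5 or Cox4 to Cox8, together with Sdha, Sdhb, Sdhc, Sdhd and Cycs, and they numbered 108 of 54532 rows. Of the 108 genes, 13 lie on the mitochondrial chromosome and 95 in the nucleus. By complex there were 43 genes of complex I, 4 of complex II, 9 of complex III, 1 of cytochrome c, 23 of complex IV and 20 of complex V. The other 8, named Ndufaf, are assembly factors that help build complex I and are not subunits of it. Ndufa4 and its paralog Ndufa4l2 were counted with complex IV, since Ndufa4 is a complex IV subunit despite its name. The filter on low values (FPKM, counts scaled by gene length and library total, reaching 0.1 in 3 libraries or more) was passed by 105 genes. Cox7b2, Cox8c and a second Atp5o row did not pass it.

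RNA was taken from the colon of adult mice and sequenced as 12 libraries, in 4 groups of 3. Tmem173fl/fl mice (labelled WT) carry a floxed Tmem173, the gene of the innate immune sensor adaptor STING, and no Cre. Tmem173iΔmye mice (labelled CRE) carry the same allele and a Cre recombinase that tamoxifen switches on and that is driven from Lyz2, a gene active in macrophages, monocytes and neutrophils, so that only myeloid cells are meant to lose Tmem173. All mice of both genotypes were on a C57BL/6N background and had 5 tamoxifen injections. The control groups drank water, and the DSS groups drank dextran sodium sulfate, a detergent-like polymer that injures the colon epithelium, for 7 days (colitic mice). The replicate numbers of colitic Tmem173iΔmye libraries are 1, 2 and 5. The sources used here do not say whether each library came from a separate mouse, and p-values measure the spread between these libraries.

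Library totals ran from 13823237 to 18718915 counts. Tmem173 itself was not detectably lower in whole colon of Tmem173iΔmye mice, at 20.7, 10.2 and 13.2 FPKM in colitic Tmem173iΔmye mice and 18.6, 19.2 and 16.6 FPKM in colitic Tmem173fl/fl mice (a log2 difference of -0.28 with an edgeR adjusted p of 0.60; exact two-sided permutation p 0.4, with 0.1 the smallest that 3 against 3 allows). All 10 epithelial markers on the list were detected in each group. In 3 libraries (untreated Tmem173fl/fl replicate 3, untreated Tmem173iΔmye replicate 3 and colitic Tmem173iΔmye replicate 5) the female transcript Xist exceeded the Y-linked genes, and the other 9 showed the male pattern. Untreated Tmem173iΔmye replicate 3 also held the brown fat markers Ucp1 at 7.88 and Cidea at 8.995 FPKM, which did not exceed 0.297 FPKM in the other 11 libraries. Pancreas markers summed to between 0 and 7118 FPKM across the libraries.

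The first question was how colitis changed the respiratory chain transcripts as a whole. The 13 mitochondrially encoded genes took 3.25%, 4.35% and 4.86% of all counts in untreated Tmem173fl/fl mice and 2.11%, 1.97% and 2.65% in colitic Tmem173fl/fl mice, so that the groups did not overlap. In Tmem173iΔmye mice the share was 3.98%, 4.43% and 2.92% without DSS and 3.14%, 4.11% and 6.44% with DSS, and these groups overlapped. The 95 nuclear encoded genes together took 1.241%, 1.159% and 1.152% of counts in untreated Tmem173fl/fl mice and 0.682%, 0.690% and 0.779% in colitic ones. In Tmem173iΔmye mice the nuclear share was 1.17%, 1.29% and 1.32% without DSS and 0.725%, 1.06% and 1.16% with DSS. Colitic Tmem173iΔmye replicate 1 lay within the range of colitic Tmem173fl/fl mice in its nuclear share, and replicates 2 and 5 lay above that range. No test was run on these sums over the genes. In whole tissue, fewer cells of a type and less RNA per cell cannot be told apart.

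**Figure D1:**
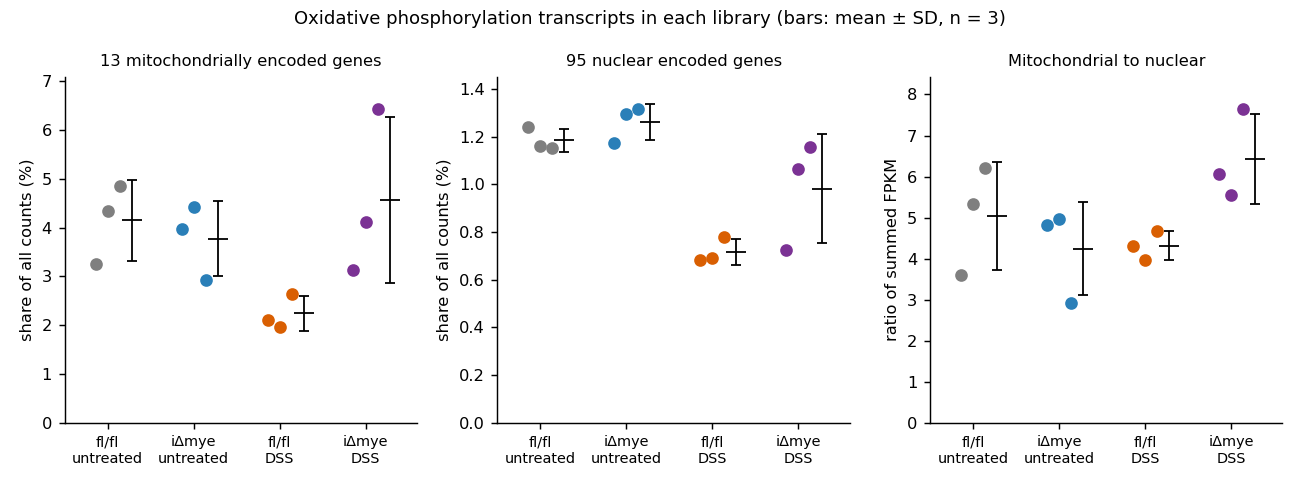
The left and middle panels plot the percentage of each library's counts in the 13 mitochondrially and the 95 nuclear encoded genes, and the right panel plots the ratio of their summed FPKM, with 1 point per library and bars for the mean and SD of 3 libraries. The colitic Tmem173fl/fl libraries lay below all untreated ones in both shares, and the colitic Tmem173iΔmye libraries spread from 3.14% to 6.44% in the mitochondrial share.

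Relative to one another, the summed FPKM of mitochondrially encoded genes was 3.595, 5.32 and 6.20 times that of nuclear encoded ones in untreated Tmem173fl/fl mice, and 4.82, 4.97 and 2.93 times in untreated Tmem173iΔmye mice. In colitic Tmem173fl/fl mice the ratio was 4.32, 3.96 and 4.67, inside the untreated range. In colitic Tmem173iΔmye mice it was 6.05, 5.56 and 7.66, above each library of untreated Tmem173iΔmye and of colitic Tmem173fl/fl mice. The highest untreated Tmem173fl/fl library lay within the colitic Tmem173iΔmye range, and no test was run on the ratio.

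Gene by gene, colitis in Tmem173fl/fl mice lowered most of the respiratory chain. Of the 105 genes tested, 76 fell and 3 rose at a Benjamini-Hochberg adjusted p under 0.05 (edgeR). Over all 24041 genes tested in this comparison 16% fell and 19.5% rose. The median log2 fold change of the 105 genes was -0.80, against 0.03 over all genes. Of the falls, 33 were at least 2-fold (the same threshold and a log2 fold change of -1 or below), a call that 7.63% of all genes met. In 84 of the 105 genes each colitic library lay below each untreated library, which held for 25.5% of all genes. Mitochondrially encoded genes fell in 10 of 13 cases, with a median log2 fold change of -1.10, and nuclear encoded genes fell in 66 of 92 cases, with a median of -0.77. By limma on log2(FPKM + 0.1) 69 of the 105 genes fell, but 5 of the 10 mitochondrial calls were lost, and 6 on log2(FPKM + 1).

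Cell type markers moved in the same libraries. The 10 epithelial markers summed to 6537 to 8150 FPKM in untreated and 2633 to 4617 FPKM in colitic Tmem173fl/fl mice, and 8 of the 10 fell, with a median log2 fold change of -1.07. Of 6 markers of mature colonocytes 4 fell and 1 rose, and their sum was 1717 to 3066 FPKM without and 1756 to 2582 FPKM with DSS. The 7 neutrophil markers rose, from 44.7 to 105 FPKM in sum without DSS to 531 to 877 FPKM with DSS, and so did the 7 macrophage markers (217 to 323 FPKM, then 595 to 851 FPKM) and the 6 fibroblast markers (144 to 173 FPKM, then 1017 to 1275 FPKM). In colitic Tmem173iΔmye mice the epithelial sum was 5425 to 6695 FPKM, the neutrophil sum 229 to 325 FPKM and the fibroblast sum 296 to 416 FPKM. The part of these markers in the results on the respiratory chain was not tested.

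**Figure D2:**
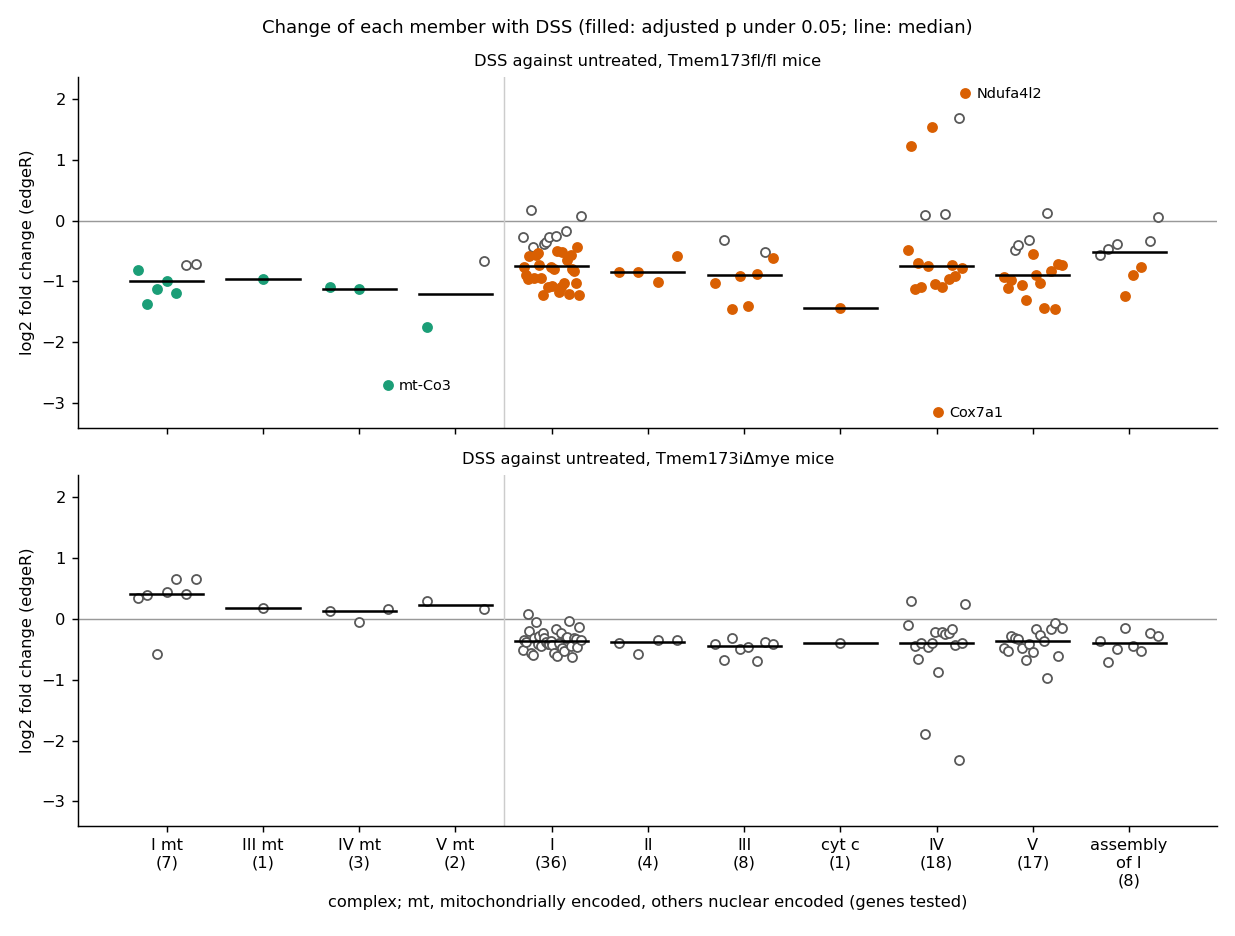
Each point is a gene, placed by complex (horizontal axis, number of genes tested in brackets) and by its log2 fold change with DSS from edgeR (vertical axis), in Tmem173fl/fl mice above and Tmem173iΔmye mice below, with filled points for adjusted p under 0.05 and a line at each median. In Tmem173fl/fl mice 76 points are filled below 0 and 3 above it, all 3 in complex IV, and in Tmem173iΔmye mice none is filled.

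Among the mitochondrially encoded genes, mt-Co1, the catalytic subunit of complex IV, was the most abundant by FPKM. It was at 12997, 15745 and 16163 FPKM in untreated and 6524, 5778 and 8474 FPKM in colitic Tmem173fl/fl mice, a log2 fold change of -1.10 with a standard error (SE) of 0.18 (edgeR adjusted p 0.00112). All 3 colitic libraries lay below the untreated range. By limma mt-Co1 did not pass at a like fold change of -1.12 (adjusted p 0.458 with a pseudocount of 0.1 and 0.520 with 1). The colitic libraries also lay below the untreated ones for mt-Cytb, the only complex III subunit of the mitochondrial genome, at 4051, 5533 and 6034 FPKM without and 2587, 2222 and 3109 FPKM with DSS (-0.96, SE 0.19, adjusted p 0.00351). Of the 7 complex I subunits, mt-Nd1 (-0.81), mt-Nd2 (-1.37), mt-Nd3 (-1.12), mt-Nd4 (-1.0) and mt-Nd4l (-1.19) fell. The calls of mt-Cytb (limma adjusted p 0.245 and 0.288 at the pseudocounts 0.1 and 1), mt-Nd1 (0.293 and 0.335), mt-Nd4 (0.0797 and 0.0903) and, at 1 alone, mt-Nd2 (0.0522) were also lost by limma. For mt-Nd5 (-0.73, adjusted p 0.0868) and mt-Nd6 (-0.71, adjusted p 0.0635) the groups overlapped, and the call depended on the setting: both passed by DESeq2 (adjusted p 0.0341 and 0.0213) and with no filter (0.0190 and 0.0142). Complex V had mt-Atp6, the proton channel subunit, at 53.6, 119.7 and 78.9 FPKM without and 19.4, 25.1 and 29.3 FPKM with DSS (-1.76, SE 0.27, adjusted p 0.000777). mt-Atp8 had few counts, between 0.234 and 2.58 FPKM in all 12 libraries, and no change was detectable at these counts (adjusted p 0.612). Its low counts do not tell how much of its RNA was present, as described below.

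The level of several of these genes is uncertain. In the mouse genome (GRCm38) unprocessed pseudogenes on chromosome 1, between 24611535 and 24616197, carry near-identical copies of mitochondrial sequence. The copy of mt-Atp6 (Gm10925) matched it at 100% over 678 bases, and that of mt-Co3 (Gm28437) at 100% over 783 bases. The deposited table gave 7373 counts to mt-Atp6 and 8547 to Gm10925 over the 12 libraries, and where the other reads of this shared sequence went was not measured. Among annotated transcripts, such copies, at 98% identity or more over at least 50% of the transcript, were found for 6 of the 13 genes. They were mt-Atp6, mt-Co2, mt-Co3, mt-Nd3, mt-Nd4 and mt-Nd4l. The genome outside annotated transcripts was not searched. mt-Atp8 lies between mt-Co2 and mt-Atp6, which both have copies in this stretch, so a copy of it there may have been missed. mt-Co1 matched Gm29216 in the stretch at 99.8% over 483 bases, short of the 50% limit. The 7 genes without a copy by this search had a median log2 fold change of -0.81 in Tmem173fl/fl mice, and 4 of the 7 fell. mt-Co3 showed the largest mitochondrial fall, -2.70, and rested in size on 1 library: it was at 44.5, 76.1 and 345 FPKM in untreated Tmem173fl/fl mice and 21.0, 21.0 and 29.3 FPKM in colitic ones, and without untreated replicate 3 the change was -1.32 (adjusted p 0.0061). By limma mt-Co3 did not pass (adjusted p 0.0636 and 0.0631). The coordinates of mt-Atp8 (7766 to 7969) and mt-Atp6 (7927 to 8607) overlap on the mitochondrial chromosome, as do those of mt-Nd5 (11742 to 13565) and mt-Nd6 (13552 to 14070, the opposite strand). Whether the counting used strand was not stated. Without it, reads from the other strand would be counted for mt-Nd6, and it would not be measured apart from mt-Nd5. In untreated Tmem173fl/fl mice mt-Nd6 was at 1067, 1980 and 2366 FPKM and mt-Nd5 at 996, 1996 and 2405 FPKM. What part of the mt-Nd6 counts came from the other strand was not measured.

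Complex I has the most subunits. Of its 36 nuclear encoded genes 27 fell in colitic Tmem173fl/fl mice and none rose, and the median log2 fold change was -0.75. Ndufs1, which carries iron-sulfur clusters of the electron path, was at 19.6, 19.9 and 22.0 FPKM without and 9.78, 9.16 and 10.9 FPKM with DSS (-1.03, SE 0.13, edgeR adjusted p 0.000255). Ndufv1, which binds NADH, fell less, by 0.44 on the log2 scale (SE 0.14, adjusted p 0.0313). The largest falls were those of Ndufab1, the mitochondrial acyl carrier protein (-1.22), Ndufv2 (-1.21) and Ndufs4 (-1.20), all without overlap between the groups. Ndufa2 (0.17, adjusted p 0.476) and Ndufv3 (0.07, adjusted p 0.734) did not pass the test. Of the 8 Ndufaf assembly factors 3 fell, Ndufaf4 (-1.24), Ndufaf5 (-0.89) and Ndufaf6 (-0.77), and the median of the 8 was -0.52.

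Complex II is encoded wholly in the nucleus and also belongs to the tricarboxylic acid cycle. All 4 of its genes fell in colitic Tmem173fl/fl mice, with a median of -0.85. Sdha, the flavoprotein that oxidises succinate, was at 105, 99.2 and 90.1 FPKM without and 50.8, 47.5 and 63.3 FPKM with DSS (-0.85, SE 0.16, edgeR adjusted p 0.00210). The iron-sulfur subunit Sdhb (-0.85) and the membrane anchors Sdhc (-1.01) and Sdhd (-0.58) fell likewise. In complex III 6 of 8 nuclear genes fell, with a median of -0.89. The leading fall was that of Uqcrb, a ubiquinone-binding subunit, from 102, 68.4 and 105 to 27.9, 32.3 and 39.2 FPKM (-1.46, SE 0.20, adjusted p 0.000329). Uqcrc2 (-1.41), Uqcrc1 (-0.91) and the Rieske iron-sulfur protein Uqcrfs1 (-0.88) fell as well, while Uqcrh (-0.51, adjusted p 0.0566) and Uqcr11 (-0.31, adjusted p 0.285) did not pass the test. Cycs, the cytochrome c that carries electrons between complexes III and IV, fell from 45.1, 34.4 and 42.4 to 13.6, 14.7 and 16.3 FPKM, a 2.70-fold drop (log2 fold change -1.43, SE 0.15, adjusted p 6.85e-05).

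Complex V had 13 falls among 17 nuclear genes and a median of -0.90. Atp5b, the catalytic beta subunit, was at 421, 423 and 388 FPKM without and 181, 169 and 214 FPKM with DSS (-1.11, SE 0.15, edgeR adjusted p 0.000336), and Atp5a1, the alpha subunit, fell by 0.93 on the log2 scale. The largest falls of the complex were those of small membrane-sector proteins, Atp5mpl (-1.45) and Atp5j2 (-1.44), and of Atp5g1, which encodes the rotating c subunit (-1.31). The c subunit has 3 genes, and the changes of the others were -0.54 for Atp5g3 (adjusted p 0.0446) and -0.32 for Atp5g2 (adjusted p 0.0875, not passing). Atp5k was at 27.7, 8.77 and 14.7 FPKM without and 16.7, 18.6 and 19.9 FPKM with DSS and did not pass the test (adjusted p 0.816).

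Complex IV held the genes that rose. Of its 18 nuclear genes tested, 12 fell and 3 rose, and the median was -0.74. Several of its subunits exist as a widely used form and a paralog with restricted use, in lung, heart, skeletal muscle or testis. The widely used forms fell: Cox4i1 (-0.49), Cox6a1 (-1.10), Cox6b1 (-0.75), Cox7a2 (-1.08), Cox7b (-0.96), Cox8a (-0.91) and Ndufa4 (-0.77). Cox7b2, the paralog of Cox7b, was too low to be tested. Cox5a also fell (-1.12). The Cox4i1 call was lost by limma (adjusted p 0.0639 and 0.0649). The 3 risers were all paralogs at low level. Ndufa4l2, which is induced by hypoxia in many cells, was at 0.537, 0.181 and 0.785 FPKM in untreated and 3.10, 2.18 and 1.14 FPKM in colitic Tmem173fl/fl mice (log2 fold change 2.09, SE 0.56, edgeR adjusted p 0.0147). Without colitic replicate 1 its log2 fold change was 1.72 and it did not pass (adjusted p 0.0650). Cox6b2, the testis form of Cox6b1, was at 1.39, 2.32 and 1.72 FPKM without and 6.27, 4.60 and 4.68 FPKM with DSS (1.53, SE 0.29, adjusted p 0.00266). Cox4i2, the form known from lung, was at 0.747, 0.669 and 1.25 FPKM without and 1.81, 2.24 and 2.19 FPKM with DSS (1.23, SE 0.41, adjusted p 0.0400), and lost the call when any library but untreated replicate 3 was left out (adjusted p 0.0768 to 0.115) and by DESeq2 (0.0585). In all 3 genes the groups did not overlap. These paralogs stayed far below the widely used forms, which were at 162, 167 and 209 FPKM for Cox4i1 and 98.7, 101 and 117 FPKM for Cox6b1 in colitic mice.

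The heart and muscle paralog Cox7a1 went the other way and showed the largest fall of all 105 genes. It was at 35.1, 17.0 and 20.8 FPKM in untreated and 1.84, 2.40 and 4.01 FPKM in colitic Tmem173fl/fl mice, an 8.81-fold drop (log2 fold change -3.14, SE 0.38, edgeR adjusted p 0.000156). Smooth muscle markers summed to 993 to 1360 FPKM in untreated and 902 to 1080 FPKM in colitic Tmem173fl/fl mice, and 1 of the 6 fell. Striated muscle markers summed to 5.39 to 6.57 FPKM without and 5.15 to 6.57 FPKM with DSS, and of these 6 genes 2 rose and 1 fell, with a median log2 fold change of 0.07. Cox7a2l, a relative of Cox7a2, did not pass the test, at 81.1, 89.0 and 93.4 FPKM without and 81.4, 97.2 and 101 FPKM with DSS (0.10, SE 0.14, adjusted p 0.605). The other muscle forms were scarce. Cox6a2 did not exceed 0.435 FPKM in any library. Cox8b did not exceed 1.54 FPKM in 11 libraries and was at 12.2 FPKM in untreated Tmem173iΔmye replicate 3, the library with brown fat markers.

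**Figure D3:**
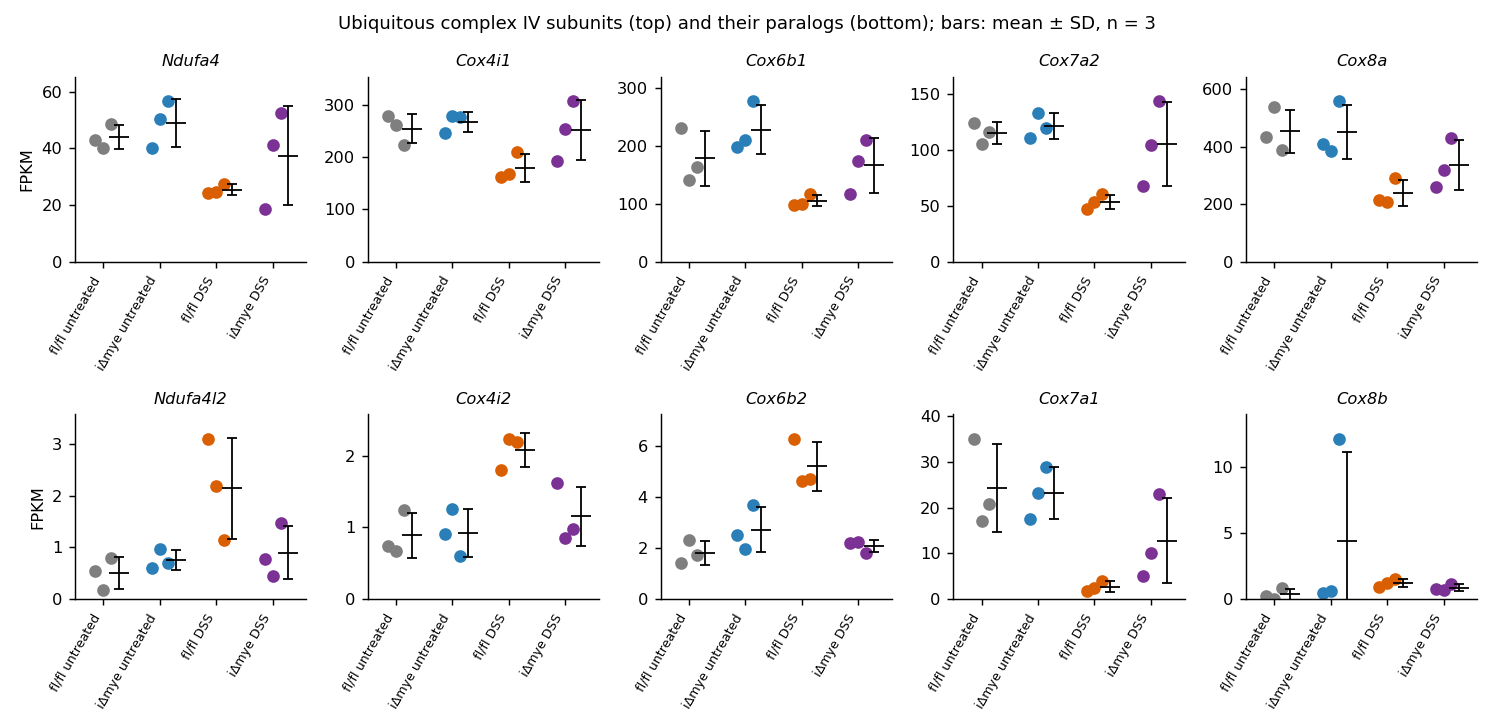
FPKM of 5 complex IV subunits (top row) and their paralogs (bottom row) in each library, by group, with bars for the mean and SD of 3 libraries and vertical axes that start at 0 (the lower bar of Cox8b in untreated Tmem173iΔmye mice is cut off there). In Tmem173fl/fl mice with DSS each top gene lay below its untreated values, Ndufa4l2, Cox4i2 and Cox6b2 lay above theirs, and Cox7a1 fell to between 1.84 and 4.01 FPKM.

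The second question was whether the same fall occurred in Tmem173iΔmye mice. There, 0 of 105 genes passed the test with DSS (edgeR; the smallest adjusted p was 0.196). At an unadjusted p under 0.05 there were 11 genes, all lower, which is 10.5% of the 105 beside 15.6% of all genes in either direction and 6.15% lower. Over all 24038 genes tested 1.53% rose and 0.641% fell by edgeR. DESeq2 also called 0 of the 105, where it called 4.02% of all genes higher and 2.03% lower. The signs of the 2 genomes went apart. Nuclear genes had a negative log2 fold change in 89 of 92 cases, against 48.2% of all genes, and a median of -0.39. That median ran from -0.56 to -0.18 with single libraries left out. For the nuclear genes the groups did not overlap in 21 cases, all lower, where 9.44% of all genes were lower without overlap. Mitochondrially encoded genes had a positive log2 fold change in 11 of 13 cases, against 51.8% of all genes, and a median of 0.30, and in none of the 13 did the groups separate. This sign rested on the library set: the mitochondrial median was -0.10 without colitic replicate 5 and -0.27 without the libraries of female pattern.

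The nuclear medians by complex were alike in size in Tmem173iΔmye mice, at -0.37 for complex I, -0.37 for complex II, -0.44 for complex III, -0.40 for complex IV and -0.36 for complex V. The smallest unadjusted p values belonged to Uqcrfs1 (log2 fold change -0.69), Ndufb8 (-0.62), Atp5g1 (-0.68), Atp5o (-0.62) and Atp5b (-0.53). Uqcrfs1 was at 176, 191 and 169.5 FPKM without and 76.0, 139.7 and 118 FPKM with DSS, and Atp5b at 381, 425 and 388 FPKM without and 233, 339 and 263 FPKM with DSS. In both genes all 3 colitic libraries were below the untreated ones, and replicate 1 was the lowest. Of the genes that rose in Tmem173fl/fl mice, Cox6b2 was at 2.51, 1.95 and 3.68 FPKM without and 2.18, 2.22 and 1.82 FPKM with DSS (-0.41, SE 0.38), and Ndufa4l2 at 0.595, 0.962 and 0.702 FPKM without and 0.780, 0.448 and 1.46 FPKM with DSS (0.24, SE 0.56). Cox7a1 was at 17.5, 23.2 and 28.9 FPKM without and 5.05, 10.1 and 23.0 FPKM with DSS (-0.87, SE 0.48, edgeR adjusted p 0.427), and without colitic replicate 5 it fell by 1.60 on the log2 scale (adjusted p 0.0242).

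The colitic Tmem173iΔmye libraries lay further apart than those of the other 3 groups by the following measure. Taking for each library the median log2 level of the nuclear genes relative to untreated Tmem173fl/fl mice, replicate 1 was at -0.78, replicate 2 at -0.13 and replicate 5 at 0.11. The colitic Tmem173fl/fl libraries were at -0.89, -0.86 and -0.70, so replicate 1 lay among them. For the mitochondrially encoded genes the same measure was -0.54, -0.07 and 0.59 in colitic Tmem173iΔmye mice and -1.10, -1.27 and -0.82 in colitic Tmem173fl/fl mice, and here replicate 1 lay above all 3. Untreated Tmem173fl/fl libraries ranged from -0.45 to 0.33 in this measure for the mitochondrial genes and from -0.05 to 0.11 for the nuclear genes, so the mitochondrial genes varied more between untreated libraries.

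**Figure D4:**
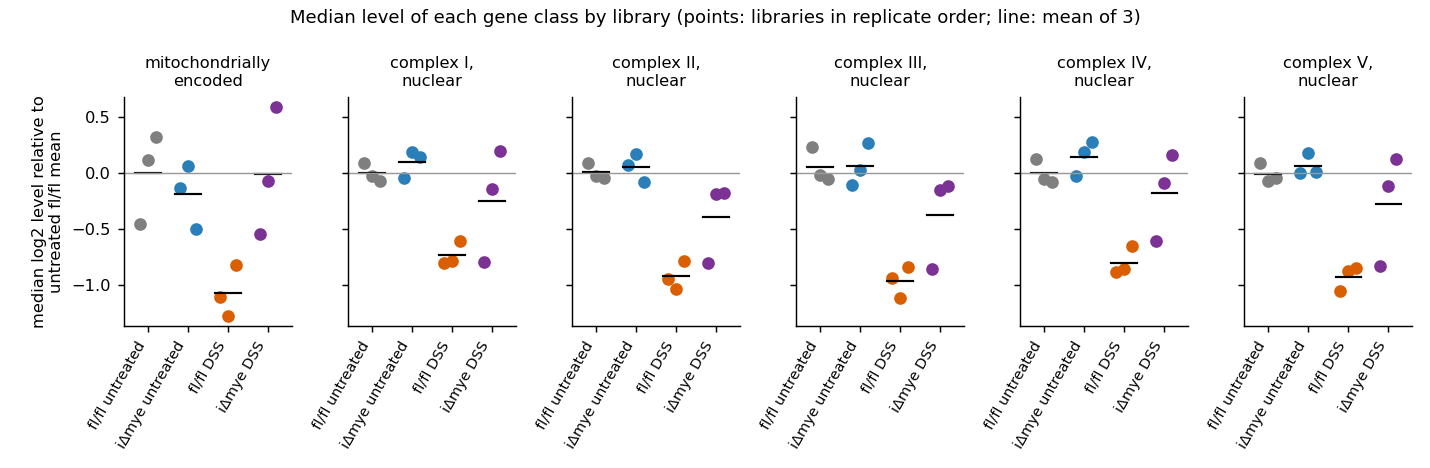
Each point is a library, and the vertical axis is the median log2 level of the gene class in that library relative to the mean of untreated Tmem173fl/fl mice, with a line at the mean of 3 libraries. Colitic Tmem173iΔmye replicate 1 (the leftmost of its group) lies within the colitic Tmem173fl/fl range for nuclear complexes I, II and III, just above it for IV (-0.61 beside -0.65 at the highest) and V (-0.83 beside -0.85), and further above it in the mitochondrial class.

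Between genotypes without DSS, 0 of 105 genes passed the test (edgeR; 8 at an unadjusted p under 0.05, beside 3.01% of all genes; 0 by DESeq2), as did 0% of all 23925 genes tested. The median log2 fold change was 0.10 for nuclear and -0.18 for mitochondrially encoded genes.

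Between colitic mice of the 2 genotypes, Cycs and Cox7b were higher in Tmem173iΔmye mice and no gene was lower. Over all 24017 genes tested 0.958% were higher and 2.17% lower. Among the colitic libraries only Tmem173iΔmye replicate 5 showed the female pattern, so sex and genotype cannot be fully told apart here. Cycs was at 26.6, 46.1 and 41.6 FPKM in colitic Tmem173iΔmye mice and 13.6, 14.7 and 16.3 FPKM in colitic Tmem173fl/fl mice, 2.60-fold higher (log2 fold change 1.38, SE 0.22, edgeR adjusted p 0.0223). Cox7b, a small nuclear subunit of complex IV encoded on the X chromosome, was at 66.8, 108 and 105 FPKM against 42.9, 45.3 and 53.8 FPKM (1.01, SE 0.22, adjusted p 0.0473). In both genes the groups did not overlap and replicate 1 was the lowest of the Tmem173iΔmye libraries. The Cox7b call was lost when any library but colitic Tmem173iΔmye replicate 1 was left out (adjusted p up to 0.223), and the Cycs call without any of the colitic Tmem173fl/fl libraries or Tmem173iΔmye replicate 2 (adjusted p up to 0.122). Both were lost by limma (adjusted p 0.0634 for Cycs and 0.111 for Cox7b with a pseudocount of 0.1).

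Most other genes lay in the same direction without passing in the edgeR fit of the 2 groups. The log2 fold change was positive in 95 of 105 genes, against 51.6% of all genes, and 52 had an unadjusted p under 0.05, beside 20.3% of all genes. In 39 genes each colitic Tmem173iΔmye library lay above each colitic Tmem173fl/fl library, which held for 12% of all genes. The median was 1.13 for the mitochondrially encoded genes, all 13 of which were positive and 11 of which did not overlap, and 0.53 for the nuclear genes. By complex the nuclear medians were 0.53 for complex I, 0.55 for complex II, 0.50 for complex III, 0.56 for complex IV and 0.68 for complex V. This comparison shares the colitic Tmem173fl/fl libraries with the DSS comparison in that genotype. Without colitic Tmem173iΔmye replicate 1, 41 of the 105 genes were called higher, beside 3.01% of all genes in that fit. Without replicate 5 of that group 1 was, beside 0.81% of all genes. Without replicate 2 or any of the colitic Tmem173fl/fl libraries none was, beside 0.0209% to 0.263% of all genes. By DESeq2 30 genes were higher (4.36% of all genes), and 30 with all 12 libraries in 1 fit (4.38%). By limma with a pseudocount of 0.1 none was (0.162%).

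Cox6b2 was the gene nearest to a call in the other direction, at 2.18, 2.22 and 1.82 FPKM in colitic Tmem173iΔmye mice and 6.27, 4.60 and 4.68 FPKM in colitic Tmem173fl/fl mice (-1.30, SE 0.30, adjusted p 0.0550), and the groups did not overlap. Epithelial markers had a median log2 fold change of 0.84 between the colitic genotypes, colonocyte markers of 1.32 (3 of 6 higher), fibroblast markers of -1.54 and neutrophil markers of -2.72. The largest shift was that of the 5 erythroid markers, all lower (-3.10), which had all risen with DSS in Tmem173fl/fl mice (5.46). Their part in the difference was not tested.

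**Figure D5:**
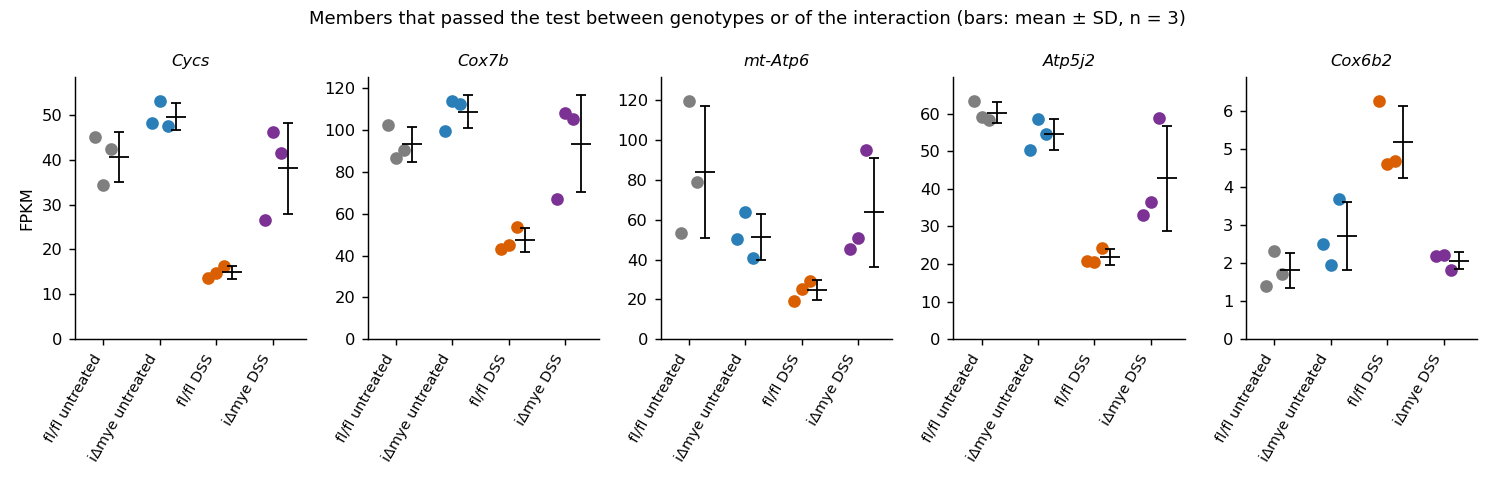
FPKM of the 5 genes that passed the test between colitic genotypes or of the interaction, in each library by group, with bars for the mean and SD of 3 libraries and vertical axes from 0. Cycs, Cox7b, mt-Atp6 and Atp5j2 were lowest in colitic Tmem173fl/fl mice, and Cox6b2 was highest there.

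Whether the DSS effect itself differed between genotypes was tested as an interaction over all 12 libraries. Of the 105 genes 2 were higher and 1 lower, with 0.987% and 1.66% of 24102 genes as background, so the counts were near the share over all genes. By DESeq2 16 were higher (2.73% of all genes), and with no filter 13 (1.5%). A positive value means that the fall with DSS was smaller, or the rise larger, in Tmem173iΔmye mice. The interaction was 2.13 for mt-Atp6 (SE 0.46, edgeR adjusted p 0.0284), at 50.1, 63.7 and 40.7 FPKM without and 45.2, 50.8 and 95.2 FPKM with DSS in Tmem173iΔmye mice, with the uncertainty of its nuclear copy. It was 1.16 for Atp5j2 (SE 0.28, adjusted p 0.0457), which went from 50.2, 58.5 and 54.7 to 33.1, 36.6 and 58.8 FPKM in Tmem173iΔmye mice and from 63.4, 59.2 and 58.3 to 20.9, 20.5 and 24.3 FPKM in Tmem173fl/fl mice. It was -1.86 for Cox6b2 (SE 0.45, adjusted p 0.0446), the rise of which in Tmem173fl/fl mice was not seen in Tmem173iΔmye mice. With each of the 12 libraries left out in turn, the call was lost 6 times for mt-Atp6, 9 times for Atp5j2 and 10 times for Cox6b2 (adjusted p up to 0.140). Limma lost both higher calls at the pseudocounts 0.1 and 1 (adjusted p 0.0618 and 0.0522 for mt-Atp6, 0.0693 and 0.0586 for Atp5j2) and kept Cox6b2. With a block by replicate number Atp5j2 and Cox6b2 did not pass (edgeR adjusted p 0.0868 and 0.120). Without the 3 libraries of female pattern none of the 3 genes passed (adjusted p 0.143 for mt-Atp6, 0.131 for Atp5j2 and 0.209 for Cox6b2). Cycs had an interaction of 1.11 and missed the threshold (adjusted p 0.0501). The interaction was positive in all 13 mitochondrially encoded genes (median 1.30) and in 73 of 92 nuclear genes (median 0.47), where 52.1% of all genes were positive, and 43 of the 105 genes had an unadjusted p under 0.05, beside 18.1% of all genes. The mitochondrial median was 0.60 without the libraries of female pattern, and the nuclear median was 0.21 without colitic Tmem173iΔmye replicate 5.

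Since the nuclear genes fell together, the sequence before their start sites was read. RefSeq promoter windows (GRCm38.p6) were matched for 76 of the 92 nuclear genes tested, as 81 windows of 250 bases before the start. Nuclear respiratory factor 1 (NRF1) binds a palindrome made of GC followed by GCATGCGC, and the core GCATGCGC was present on either strand in 12.3% of these windows (10 genes), against 2.26% of all 32851 windows. The ETS letters CCGGAAG, which GABP (NRF2) binds, were present in 17.3% against 6.91%, and the ERR letters AAGGTCA in 6.17% against 4.08%. The whole NRF1 palindrome, which contains the core, was present in 6.17% against 0.782%. Also searched were AAGATGGC (YY1; 1.23% against 1.56%), GGGCGG (SP1; 37% against 32.7%) and the hypoxia letters ACGTG (22.2% against 16.6%). The windows of these genes were richer in G and C, with a median of 57.6% against 52.4%. The NRF1 core was present in genes that fell and in genes that did not: 8 of the 10 fell in colitic Tmem173fl/fl mice, as did 55 of all 76 with a window. Below are the windows of Cycs and Ndufa11, which hold the NRF1 core or palindrome (in capitals), and of Cox7b and Cox6b2, which hold neither it nor the ETS and ERR letters, each 5′ to 3′ on the gene's strand and ending at the base before the RefSeq start. Cycs and Cox7b are shown as the genes that passed between colitic genotypes, Ndufa11 as a subunit of complex I with the full palindrome, and Cox6b2 as a gene that rose.
Cycs, chr6:50566570-50566819, minus strand: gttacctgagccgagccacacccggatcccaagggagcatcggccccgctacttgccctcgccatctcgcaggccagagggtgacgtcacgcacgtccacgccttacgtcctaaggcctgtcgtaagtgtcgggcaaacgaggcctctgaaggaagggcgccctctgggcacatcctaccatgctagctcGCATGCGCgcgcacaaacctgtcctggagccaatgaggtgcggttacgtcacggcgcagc
Ndufa11, chr17:56717512-56717761, plus strand: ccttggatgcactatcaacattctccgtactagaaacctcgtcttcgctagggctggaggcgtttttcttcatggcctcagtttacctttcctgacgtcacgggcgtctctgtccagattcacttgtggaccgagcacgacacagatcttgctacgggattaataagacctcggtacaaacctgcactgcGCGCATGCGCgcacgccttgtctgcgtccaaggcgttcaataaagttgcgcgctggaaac
Cox7b, chrX:106015450-106015699, plus strand: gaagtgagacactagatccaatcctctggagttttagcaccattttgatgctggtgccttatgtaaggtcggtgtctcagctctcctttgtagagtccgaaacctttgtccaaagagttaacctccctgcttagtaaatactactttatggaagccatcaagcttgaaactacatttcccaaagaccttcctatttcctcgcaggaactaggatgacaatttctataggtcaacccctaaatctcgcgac
Cox6b2, chr7:4753095-4753344, minus strand: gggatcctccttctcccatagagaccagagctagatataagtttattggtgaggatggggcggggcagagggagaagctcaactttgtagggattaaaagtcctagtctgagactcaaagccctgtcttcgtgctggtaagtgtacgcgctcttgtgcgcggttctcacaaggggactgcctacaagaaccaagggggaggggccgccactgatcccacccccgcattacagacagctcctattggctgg
The match in Cycs begins 60 bases before the start, and so does the palindrome in Ndufa11. Ndufa11 fell by 0.90 on the log2 scale with DSS in Tmem173fl/fl mice (adjusted p 0.00248 by edgeR). A match of letters is a description of these windows and not a measured binding site.

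The genes that serve oxidative phosphorylation from outside the rule gave the background of the pathway. In colitic Tmem173fl/fl mice 14 of 15 tricarboxylic acid cycle genes fell (median log2 fold change -0.95), among them Cs, citrate synthase (-1.48), and Idh3a (-1.81). Of 31 other assembly factors of complexes I to V 12 fell and none rose (median -0.37), and of 77 mitochondrial ribosomal protein genes 35 fell and none rose (median -0.46). Of 17 genes for mitochondrial DNA maintenance and transcription 5 fell, namely Tfam, which packages mitochondrial DNA and starts its transcription (-0.74), Tfb1m (-1.18), Mgme1 (-1.28), Polg2 (-0.67) and Lrpprc (-0.70). The mitochondrial RNA polymerase Polrmt did not pass (-0.16, edgeR adjusted p 0.370). Of 11 nuclear regulators tested 4 fell: the coactivators Ppargc1a (-2.03) and Ppargc1b (-0.92), Ppard (-1.04) and the orphan receptor Esrrg (-5.44). Esrrg was at 2.54, 1.59 and 3.6 FPKM without and 0.0705, 0.0384 and 0.0668 FPKM with DSS. Nrf1 (-0.23, adjusted p 0.189) and Gabpa (-0.16, adjusted p 0.397) did not pass. These counts stand beside 16% of all genes that fell.

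Of the 8 carrier and porin genes tested, 6 fell and 1 rose in colitic Tmem173fl/fl mice (median log2 fold change -0.73), beside 16% of all genes lower and 19.5% higher. The 6 included the 3 porins Vdac1 (-0.76), Vdac2 (-0.85) and Vdac3 (-1.11), the channels of the outer membrane. Of 3 further genes associated with complex IV, Higd1a rose (0.63) and none fell. Among the carriers, the ADP/ATP carriers, which exchange the ATP made by complex V across the inner membrane, moved in opposite directions. Slc25a5 was at 721, 665 and 630.3 FPKM in untreated and 246, 244 and 332 FPKM in colitic Tmem173fl/fl mice (log2 fold change -1.28, SE 0.17, edgeR adjusted p 0.000275). Slc25a4, the heart and muscle form, was at 15.8, 18.5 and 17.5 FPKM without and 45.5, 50.7 and 41.7 FPKM with DSS (1.43, SE 0.13, adjusted p 3.62e-05). In Tmem173iΔmye mice none of the genes on these lists passed with DSS. The interaction passed by edgeR for 1 of 11 nuclear regulators, Esrrg (3.85, adjusted p 0.0206), and 1 of 15 tricarboxylic acid cycle genes, Cs (1.07, adjusted p 0.0249). It also passed for 1 of 8 carriers and porins, Slc25a4 (-1.07, adjusted p 0.0147), and for no gene of the other lists. Over all genes 0.987% were higher and 1.66% lower. Whether these 3 calls hold in other fits or without single libraries is not given here. By these values the falls of Esrrg and Cs and the rise of Slc25a4 were smaller in Tmem173iΔmye mice.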

How the data were processed

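Colon RNA was profiled in 12 libraries, grouped by the genotype and treatment in the sample titles. The authors selected poly(A) RNA, made libraries with a NEBNext Ultra kit and deposited whole-number counts per gene (GRCm38). The submitters' processing notes name CASAVA 1.8, fastp, HISAT2 2.0.5, featureCounts 1.5.0-p3 and DESeq2 1.20.0, and whether strand was used is not given in the sources used here. The FPKM values deposited by the authors equal the counts per gene length and library total, times a constant per library. The authors' comparisons (25 columns of group means, fold changes, p-values and adjusted p-values) were not used.

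Here, the 24102 genes that reached 0.1 FPKM in 3 libraries or more were tested on counts with edgeR 4.0.16 (TMM scaling, quasi-likelihood test, R 4.3.3), fitting the groups compared and, for the interaction, all 12 libraries. p-values were adjusted by Benjamini-Hochberg over all genes tested. Near-identical copies were sought with blastn 2.17.0+ among GENCODE M21 transcripts. Alternatives were DESeq2 1.42.0, limma 3.58.1 on log2(FPKM + 0.1) and log2(FPKM + 1), other filters and scalings, 1 fit of all libraries, libraries left out singly, and a block by replicate number. Leaving out mitochondrial genes with a nuclear copy was added after the data were seen. The scripts were tested on simulated data.

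The genes, lists and tests were chosen with earlier results of these data known. Genes named by rule were the 13 mitochondrial genes, up to 5 rises and 5 falls of largest size per comparison among genes that passed with a mean FPKM of at least 1, fixed carriers of each complex (1 of which is not reported here), fixed paralog pairs, Tmem173 and Lyz2. Others named were chosen after their values were seen. Lyz2, which hosts the Cre, was at 111, 112, 206, 70.0, 56.7 and 85.8 FPKM in the untreated and 366, 386, 259, 242, 173 and 265 FPKM in the colitic libraries, Tmem173fl/fl first.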

Additional observations from a re-analysis of the deposited data

Results flagged for a closer look

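Of the 105 genes 3 passed the test of the interaction at an adjusted p under 0.05, 2 higher and 1 lower. The log2 interaction was 2.13 for mt-Atp6 (edgeR adjusted p 0.0284), -1.86 for Cox6b2 (adjusted p 0.0446) and 1.16 for Atp5j2 (adjusted p 0.0457). Without the libraries of female pattern the values were 1.57, -1.49 and 0.84, and none passed. With each library left out in turn the mt-Atp6 value ran from 1.68 to 2.37, the Cox6b2 value from -2.08 to -1.59 and the Atp5j2 value from 0.83 to 1.32, and the calls were lost in 6, 10 and 9 of the 12 runs. Limma at the pseudocounts 0.1 and 1 lost mt-Atp6 and Atp5j2 and kept Cox6b2. A block by replicate number lost Atp5j2 and Cox6b2 (edgeR adjusted p 0.0868 and 0.120). A near-identical pseudogene of mt-Atp6 has counts of its own. By DESeq2 16 of the 105 genes were higher (2.73% of all genes), and with no filter 13 (1.5%). The edgeR calls above stand beside 0.987% of all genes higher and 1.66% lower, so their number is near the share over all genes. An unadjusted p under 0.05 was reached by 43 of the 105 genes (18.1% of all genes), and the direction was positive in 86 of 105 (52.1% of all genes).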

How the results depend on the processing

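The fall of the respiratory chain in colitic Tmem173fl/fl mice kept its direction under every setting run, but not every call: the 76 genes lower became 33 with the fold limit (7.63% of all genes lower), 69 and 68 with limma at the pseudocounts 0.1 and 1 (15.9% and 15.7%), and 65 to 80 with single libraries left out (12.3% to 15.8%), and 1 to 3 were higher. Limma kept 5 and 4 of the 10 mitochondrial calls. The nuclear median there was -0.85 to -0.72 and the mitochondrial one -1.22 to -0.86 with single libraries left out. For DSS in Tmem173iΔmye mice the 0 genes lower became 0 to 2 (2 without colitic replicate 5, beside 2.78% of all genes), the nuclear median -0.56 to -0.18 and the mitochondrial median -0.10 to 0.59, or -0.27 without the libraries of female pattern. Between untreated genotypes, no filter gave 1 lower and 2 higher (0.11% and 0.186% of all genes), and single libraries left out gave 0 of each, a nuclear median of 0.04 to 0.16 and a mitochondrial one of -0.51 to -0.01.

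Between colitic genotypes the 2 genes higher became 30 with DESeq2 (4.36% of all genes in that fit were higher), 30 with all 12 libraries in 1 fit (4.38%), 17 with no filter (1.93%), 0 with limma at the pseudocounts 0.1 and 1 (0.162% and 0.174%) and 0 to 41 with single libraries left out (0.0209% to 3.01%). Genes lower were 0 as reported and 1 (Cox6b2) with DESeq2 (5.54% of all genes lower), no filter (2.86%), an FPKM filter of 1 (3.07%) and the fit of all libraries (5.1%), and 0 with any single library left out. The nuclear median was 0.33 to 0.73 and the mitochondrial one 0.74 to 1.41. The 2 genes with a higher interaction became 16 with DESeq2 (2.73% of all genes were higher), 13 with no filter (1.5%), 1 with scaling without mitochondrial genes (0.967%), 0 with limma at the pseudocounts 0.1 and 1 (0.602% and 0.68%), 0 without the libraries of female pattern (0.27%) and 0 to 36 with single libraries left out (36 without colitic Tmem173iΔmye replicate 1, beside 3.7%). The 1 gene lower became 0 without the libraries of female pattern and 0 to 1 with single libraries left out. The mitochondrial interaction median was 0.92 to 1.52, and 0.60 without the libraries of female pattern, and the nuclear one was 0.21 to 0.65, lowest without colitic Tmem173iΔmye replicate 5. The cause of these shifts was not tested. With no filter the median of all genes moved from 0.03 to 0.11 for DSS in Tmem173fl/fl mice.

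Same-numbered libraries correlated at -0.17 to 0.20 in their deviations and were not taken as pairs. With the replicate block 5 genes were lower with DSS in Tmem173iΔmye mice (3.07% of all genes) and the mitochondrial median was -0.29, 1 was lower and 2 were higher between untreated genotypes (0.18% and 0.33%), and the interaction had 0 lower (1.34%) and 1 higher (1.12%). Between colitic genotypes the block lost Cox7b (adjusted p 0.0744 by edgeR) and gained Uqcrb (0.0438). For DSS in Tmem173fl/fl mice the block left 72 genes lower and 2 higher. Its lost calls included Cox4i1 (0.0745), Cox4i2 (0.0698) and Ndufv1 (0.0721), and its gained calls included mt-Nd5 (0.0443) and mt-Nd6 (0.0297). Few counts limit some genes most: Cox6a2 had 20 counts and mt-Atp8 49 over all 12 libraries.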
